A study of Homo sapiens with 6 samples.

Results

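The nuclear genes for the subunits of the mitochondrial respiratory chain and the ATP synthase were followed in U2932 cells, an established human line of diffuse large B-cell lymphoma. Members were taken by name: rows whose gene name begins with NDUFA, NDUFB, NDUFC, NDUFS or NDUFV (NDUFAF assembly factors left out), UQCR, COX4 to COX8 or ATP5, and the genes SDHA to SDHD and CYC1. That gave 91 of the 34675 rows, 40 named for complex I, 5 for complex II, 10 for complex III, 16 for complex IV and 20 for complex V. The study compared 3 samples infected with a short hairpin against PRDM11, a PR domain protein of the family that holds histone methyltransferases, with 3 samples infected with a scrambled hairpin. All 6 samples were under puromycin for 3 days, and all 3 knockdown samples carried 1 and the same hairpin plasmid. The labels do not say whether the 3 samples of a group came from separate cultures, so p-values measure the spread between samples, which may be technical.

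The inner mitochondrial membrane carries these complexes. Complex I takes electrons from NADH and complex II from succinate, complex III passes them from ubiquinol to cytochrome c, and complex IV gives them to oxygen. Complexes I, III and IV pump protons, and complex V, the ATP synthase, uses the proton gradient to make ATP. Most subunits are nuclear genes whose proteins are imported, and a small set is encoded in mitochondrial DNA.

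The authors' deposited table names its conditions only A and B, and neither the labels nor the headers say which of them is the knockdown. Every difference is therefore given as condition A over condition B, with no assignment. PRDM11 itself, the targeted gene, has means of 287.6 (A) and 542.1 (B) normalised reads, that is, read counts divided by size factors, by the authors' deposited table, with a DESeq adjusted p of 1.76e-08. Reads of single libraries were worked out from the means, as described with the processing. The libraries are numbered 1 to 3 in each condition by falling size factor, a numbering that has no link to the replicate numbers of the labels. Their recovered reads, which leave out the most abundant genes, ranged from 17568339 in library 3 of condition A to 27309280 in library 1 of condition A. The B cell markers CD79A, CD79B, MS4A1, PAX5 and CD22 all had means above 100, and T cell, NK cell and myeloid markers were all under 100. Of the epithelial and fibroblast markers EPCAM alone was above 100 (1285 and 1242 normalised reads by the authors' deposited table). In bulk RNA, fewer cells of a type and less RNA per cell cannot be told apart.

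No respiratory chain gene passed the study's own test. The authors' deposited table holds 0 of 91 members with a DESeq adjusted p under 0.05, where 2.54% of all genes were called (0.966% higher and 1.57% lower in condition A). Among protein-coding genes with a mean of at least 100 normalised reads, 6.39% were called, and 80 members are of that kind. At an unadjusted p under 0.05 there were 7 of those 80 members, 1 higher and 6 lower in condition A, against 9.61% of all rows and 21.1% of the 10321 protein-coding genes at that level (8.78% higher and 12.3% lower). A second test, limma on log2 of the recovered reads plus 1, called 2 of 78 members, against 9.11% of the 16589 genes it tested. These were NDUFB8, lower in condition A, and COX7C, higher in condition A. Both had missed the threshold of the authors' deposited table, where the DESeq adjusted p was 0.0642 for NDUFB8 and 0.0761 for COX7C.

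The differences were small and went both ways. By the authors' deposited table the log2 ratios of the 80 members had a median of -0.07, with 52 below and 28 above 0, and ran from -0.50 (NDUFB8) to 0.40 (ATP5SL). All 10321 protein-coding genes had a median of -0.0041, with 50.8% below 0. The members' median rests partly on single libraries. Over the 75 members with recovered reads it was -0.03 without library 3 of condition A and -0.04 without library 1 of condition B. It was -0.0073 without both. With all libraries and TMM scaling factors it was -0.07 over the same 75. For 64 of the 75 members with recovered reads, the 95% interval of the limma log2 ratio lay within a 1.5-fold change in either direction. It included 0 for 58, lay below 0 for 12 and above 0 for 5. The 11 members whose interval reached past 1.5-fold were NDUFA3, NDUFA5, NDUFB8, NDUFC2, SDHD, UQCR10, ATP5E, ATP5J, ATP5J2, ATP5S and ATP5SL. Libraries of condition A lay all below those of condition B in 13 of the 75 and all above in 2, while over all such protein-coding genes the shares were 19.6% and 15.4%.

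**Figure D1:**
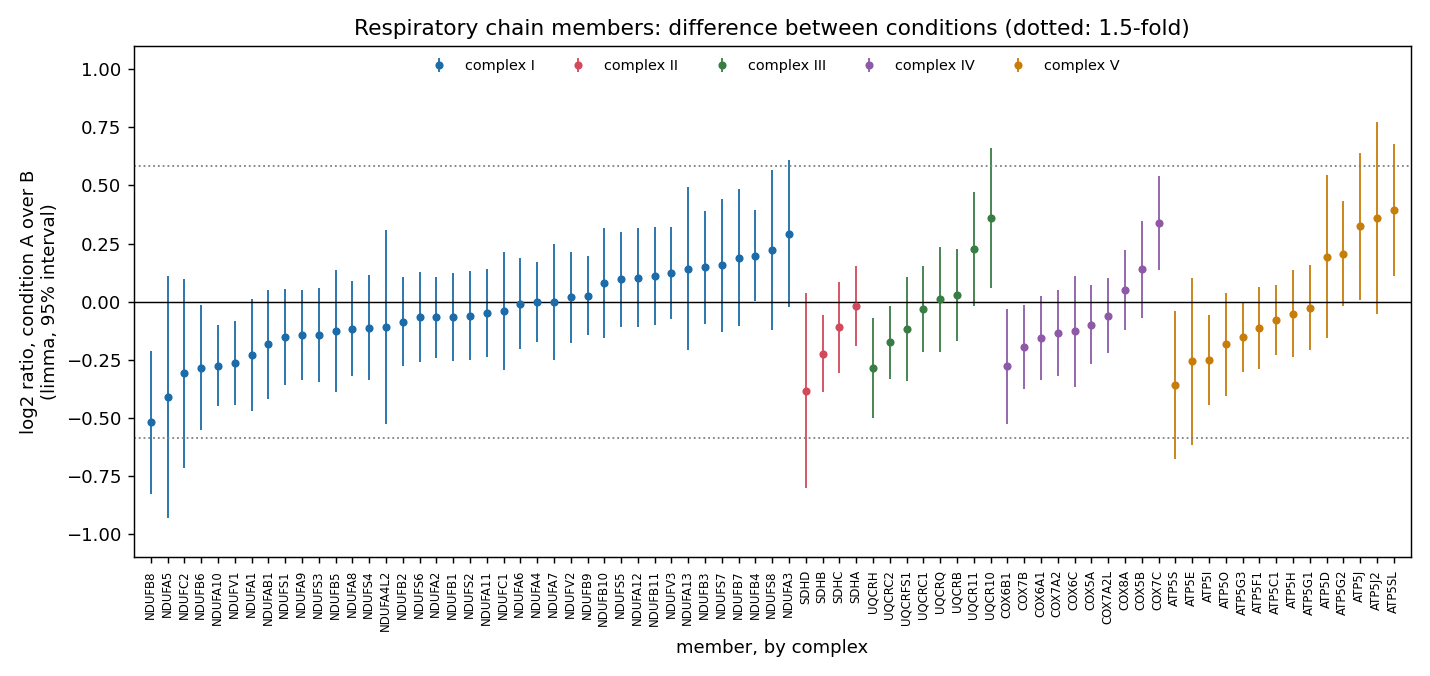
The vertical axis gives the limma log2 ratio of condition A over B with its 95% interval for the 75 members with recovered reads, grouped by complex on the horizontal axis and sorted within it. Most intervals cross 0 and stay between the dotted lines at a 1.5-fold change, and each complex but II has members on both sides.

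Across the complexes, the median log2 ratio by the authors' deposited table was -0.06 for 39 members of complex I, -0.17 for 4 of complex II, 0.0064 for 9 of complex III, -0.12 for 11 of complex IV and -0.08 for 17 of complex V. Complex II was the one whose members all lay below 0. NDUFA4L2, COX7A2L, ATP5S and ATP5SL are in these medians by name but were not counted as subunits. Without them the medians were -0.05 for 38 members of complex I, -0.12 for 10 of complex IV and -0.08 for 15 of complex V. With 1 library left out at a time, medians were taken over members with recovered reads, 39, 4, 8, 10 and 14 in complexes I to V. The median then ran from -0.18 to -0.10 for complex II. For complex I it ran from -0.09 to 0.0037 and passed 0 without library 1 of condition B. It ran from -0.06 to 0.06 for complex III, from -0.16 to -0.05 for complex IV and from -0.10 to -0.03 for complex V, and for II, IV and V the value nearest to 0 was the one without library 3 of condition A. Over those 8 members of complex III the median was -0.01 with all libraries and TMM scaling factors. The complexes share their libraries and hold few members each, so all these medians are given as a description.

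Levels differed far more between members than between conditions. Divided by the length of a principal transcript, the median level of the 80 members was 3318 normalised reads per kilobase, against 593.8 for all protein-coding genes with a mean of at least 100. The median per kilobase was 2599.5 for complex I, 2315 for complex II, 3552 for complex III, 5189 for complex IV and 6049 for complex V. ATP5B, the catalytic beta subunit of the ATP synthase, was the highest at 21414 reads per kilobase. ATP5J2, a small membrane subunit, followed at 14560.4 and COX4I1, the main form of complex IV subunit 4, at 14345. These levels depend on the transcript that was taken: SDHC and ATP5S, the lowest at 55.9 and 47.9 reads per kilobase, were divided by transcripts of 13566 and 10212 bases. ATP5J2, with a mean of 4441 normalised reads, was divided by 305 bases, the shortest transcript of the 80 members. All 91 rows together held 0.839% of the summed means in condition A and 0.918% in condition B.

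**Figure D2:**
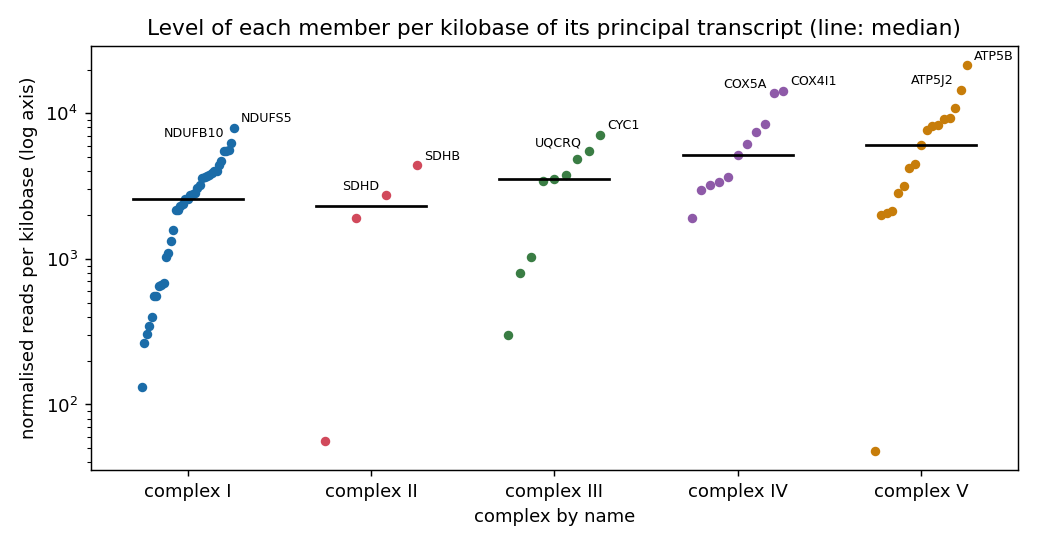
Each point is 1 of the 80 protein-coding members with a mean of at least 100, placed on a log axis by its normalised reads per kilobase of principal transcript, and the black line is the median of its complex. The ATP synthase has the highest median (6049) and complex II the lowest (2315), and the lowest points, SDHC and ATP5S, are those divided by the longest annotated transcripts of their complexes.

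Several transcription factors are known to act at promoters of respiratory genes, among them NRF1, the ETS factor GABP, YY1 and the oestrogen-related receptor ESRRA. RefSeq promoter windows (GRCh38.p14, 250 bases before to 50 after the start) were matched for 64 of the 80 members and searched on both strands. Where a gene had several windows, the first listed was used. The NRF1 motif, GCGCA, any base and GCGC in a row, was present in 15 of the 64 (23.4%), against 6.29% of all 27305 windows. The ETS motif CCGGAAGT was in 9 (14.1%, against 4.44%), and the YY1 motif, AAGATGG followed by CGG, in 7 (10.9%, against 1.28%). The 27305 windows were not limited to protein-coding genes or to a mean of at least 100, as the 64 were. The shares are therefore not from like sets of genes. These motifs can overlap in a window, and a match in the letters is a description and not a measured site. By complex, the NRF1 motif was in 6 of 32 windows of complex I, 2 of 3 of complex II, 4 of 7 of complex III, 0 of 10 of complex IV and 3 of 12 of complex V. Members with it had a median log2 ratio of -0.05 and those without it -0.07 by the authors' deposited table, a description with no test. Stretches before the start with the NRF1 match in capitals are shown for a member each of complexes I, III and V, to show how alike the match is in letters while the bases around it differ; that of UQCRC1 reads on the reverse strand. They come from chr12:95003764-95003853 (minus strand), chr3:48609647-48609733 (minus strand) and chr10:7788115-7788176 (plus strand).
NDUFA12: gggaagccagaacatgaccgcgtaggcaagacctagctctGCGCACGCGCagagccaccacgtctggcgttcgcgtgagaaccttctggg
UQCRC1: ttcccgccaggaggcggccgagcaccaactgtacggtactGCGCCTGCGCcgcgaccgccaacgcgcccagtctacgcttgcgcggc
ATP5C1: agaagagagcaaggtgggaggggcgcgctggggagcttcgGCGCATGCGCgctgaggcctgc

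In complex I, 25 of the 39 members lay below 0 and 14 above by the authors' deposited table. The 7 core subunits, which carry the flavin and the iron-sulfur clusters or the quinone site, had a median log2 ratio of -0.06, and the 31 accessory subunits -0.05. NDUFA4L2 was counted in neither of these groups. NDUFB8 is an accessory subunit of the membrane arm whose protein is often used as a marker of assembled complex I. Its coding exons span chr10:102283597-102289608 (hg19, deposited intervals). It had 708, 650.5 and 469.8 normalised reads in libraries 1 to 3 of condition A, and 830.3, 874 and 878 in those of condition B. All 3 libraries of condition A lay below all of condition B, with library 3 of condition A the lowest. The limma log2 ratio was -0.52 (SE 0.139, adjusted p = 0.0441), and it was -0.34 without library 3 of condition A (limma adjusted p = 0.0318). The call was lost without library 2 of condition A (limma adjusted p = 0.101) and without library 1, 2 or 3 of condition B (0.0845, 0.15 and 0.146), at log2 ratios of -0.58, -0.54, -0.51 and -0.50.

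NDUFA10, an accessory subunit of the membrane arm, had 2514, 2542 and 2374 normalised reads in condition A and 3184, 2842 and 2976 in condition B. The conditions did not overlap, but the log2 ratio of -0.28 by the authors' deposited table had a DESeq adjusted p of 0.318. NDUFV1, the core subunit that binds NADH and flavin, had 5479, 5541 and 4913 reads in condition A and 6829, 6027.5 and 6249 in condition B. It too showed no overlap (log2 ratio -0.26 by the authors' deposited table), and the limma 95% interval ran from -0.44 to -0.08. NDUFS1, the largest iron-sulfur subunit, had a log2 ratio of -0.15, NDUFS7 0.15 and NDUFS8 0.22 by the authors' deposited table. NDUFS5, NDUFB10 and NDUFA12, accessory subunits with the highest levels per kilobase of complex I (7975, 6293 and 5600.3), had log2 ratios of 0.09, 0.08 and 0.10 there; over the limma settings these ran from 0.03 to 0.19, from -0.0098 to 0.18 and from 0.04 to 0.20. NDUFA4, which bears a complex I name but is now known as a subunit of complex IV, had -0.0032 and counts here under its name. NDUFA3, an accessory subunit, had the highest of complex I at 0.28, with a limma interval from -0.02 to 0.61. Its limma log2 ratio was 0.29 with all libraries and 0.19 without library 3 of condition A. It was 0.46 without library 1 of condition B and 0.36 without both of these libraries.

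NDUFA5, an accessory subunit of the matrix arm, shows how 1 library can set a mean. It had 2345, 1857 and 1032 normalised reads in condition A and 1980.5, 2246 and 2372 in condition B. Library 1 of condition A stood inside the range of condition B, and library 3 was the lowest by far. The limma interval of its log2 ratio ran from -0.93 to 0.11.

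Complex II has 4 subunits and no mitochondrially encoded one. SDHA, the flavoprotein, had 4480.3, 4384 and 4679.8 normalised reads in condition A and 4936, 4351 and 4466 in condition B. The conditions overlapped fully, and the log2 ratio was -0.02 by the authors' deposited table. SDHB, the iron-sulfur subunit, had 4632, 4525 and 4887 reads in condition A and 5799.5, 5346 and 5258 in condition B. All of condition A lay below all of condition B, with a log2 ratio of -0.22 by the authors' deposited table (0.482 as DESeq adjusted p) and a limma interval from -0.39 to -0.06. SDHC, a membrane anchor, had a log2 ratio of -0.11 by the authors' deposited table with overlapping libraries.

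SDHD, the other membrane anchor, had the lowest log2 ratio of complex II, -0.34 by the authors' deposited table. It had 4334, 3726 and 2328 normalised reads in condition A and 3888, 4439 and 4831 in condition B. Library 1 of condition A stood inside the range of condition B, and library 3 far below it. Without library 3 of condition A the limma log2 ratio was -0.12, and it was -0.57 without library 1 of condition A (limma adjusted p = 0.501 and 0.0474). It was -0.20 without library 3 of condition A and library 1 of condition B together (limma adjusted p = 0.0271). That setting called 25.5% of all genes. The SDHD promoter window is shown because it alone among the 64 held the letters TCAAGGTCA of the ESRRA motif, which 0.359% of all windows hold. That match lies just after the start and is not in the 250 bases printed, chr11:112086623-112086872 (GRCh38.p14, plus strand). Capitals mark the NRF1 match and, nearer the start, the ETS match, which reads on the reverse strand.
SDHD: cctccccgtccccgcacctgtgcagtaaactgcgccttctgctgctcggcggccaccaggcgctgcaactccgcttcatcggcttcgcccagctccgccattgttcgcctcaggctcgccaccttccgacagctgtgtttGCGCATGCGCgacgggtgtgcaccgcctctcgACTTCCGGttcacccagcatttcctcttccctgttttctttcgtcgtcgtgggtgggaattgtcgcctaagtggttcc

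Complex III members lay on both sides of 0. CYC1, the cytochrome c1 subunit, was the highest per kilobase at 7115 and had a log2 ratio of 0.12 by the authors' deposited table. UQCRQ, the ubiquinone-binding accessory subunit and the next highest per kilobase at 5474, had 0.0064 there, with overlapping libraries. The core proteins UQCRC1 and UQCRC2 had -0.03 and -0.17, and UQCRFS1, the Rieske iron-sulfur protein, had -0.11. UQCRH, the hinge protein between cytochromes c1 and c, had 2072, 1912 and 1622 normalised reads in condition A and 2308, 2223 and 2269 in condition B. The conditions did not overlap, and the log2 ratio of -0.28 had a DESeq adjusted p of 0.415 by the authors' deposited table. UQCR10, a small accessory subunit, went the other way, with 4396, 4639 and 6061 reads in condition A and 4609.9, 3637 and 3493 in condition B. Its log2 ratio was 0.36 by the authors' deposited table, with library 3 of condition A the highest of the 6 and library 1 of condition B inside the range of condition A. By limma it was 0.36 with all libraries and 0.22 without library 3 of condition A. The limma value was 0.48 without library 1 of condition B, and 0.34 without both of these libraries.

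In complex IV, COX7C, a small accessory subunit with coding exons in chr5:85913873-85916487 (hg19, deposited intervals), had 2599.5, 2405 and 2227 normalised reads in condition A and 1824, 1812 and 2079.5 in condition B. All 3 libraries of condition A were above all of condition B, and the limma log2 ratio was 0.34 (SE 0.0916, adjusted p = 0.0451). The limma call was lost without library 1 or 2 of condition A (adjusted p = 0.0778 and 0.156) and without library 1, 2 or 3 of condition B (0.0921, 0.187 and 0.0817). It was also lost with library totals of the recovered reads as the scale (0.0575). The log2 ratios there were 0.28, 0.34, 0.31, 0.30, 0.40 and 0.33. COX6B1, which faces the intermembrane space, had the lowest log2 ratio of complex IV, -0.29 by the authors' deposited table. Its libraries held 4850, 5029 and 5414 reads in condition A and 7446, 5767 and 5494 in condition B. The conditions did not overlap, but the highest of condition A and the lowest of condition B nearly met, and library 1 of condition B stood apart. By limma the log2 ratio was -0.28 with all libraries and -0.14 without library 1 of condition B, where COX7B had -0.18. Without library 3 of condition B, COX6B1 had -0.36. COX4I1 had a log2 ratio of -0.27 (DESeq adjusted p = 0.353) and COX5A, its neighbour in level per kilobase at 13697, had -0.10 by the authors' deposited table.

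Complex IV has isoforms that replace each other between tissues. By the authors' deposited table the ubiquitous forms COX4I1, COX6A1, COX6B1, COX7A2, COX7B and COX8A had log2 ratios of -0.27, -0.16, -0.29, -0.13, -0.19 and 0.05. The forms known from lung, muscle or testis were close to 0 reads in both conditions: COX4I2 had means of 0.434 and 0, COX6B2 4.41 and 4.41, COX7A1 6.16 and 4.51, and COX8C 0.759 and 0.611 normalised reads there. COX7A2L, which is known for its part in supercomplexes, had a log2 ratio of -0.06. No row of the table was matched for COX6A2 or COX7B2, and they were not analysed here.

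In the ATP synthase, the 5 subunits of the F1 head had a median log2 ratio of -0.18, the 4 of the peripheral stalk -0.08, the 3 genes of the c ring -0.03 and the 3 small membrane subunits 0.05 by the authors' deposited table. ATP5A1 and ATP5B, the alpha and beta subunits, had means of 41653 and 36707 in condition A and 47281 and 42055 in condition B there, with log2 ratios of -0.18 and -0.20. Their single libraries could not be recovered. The 3 c ring genes make the same mature protein with different import sequences, and their ratios had both signs. ATP5G1 had 3527.5, 3615 and 3594 normalised reads in condition A and 4039, 3478 and 3448 in condition B. ATP5G2 had 5523, 5951 and 6182 against 5994, 4667 and 4725, and ATP5G3 had 7437, 7289.8 and 7552 against 8496, 8170.25 and 8109. ATP5G3 alone of them showed no overlap, with all of condition A lower, and in ATP5G2 the high library 1 of condition B lay inside the range of condition A. Their log2 ratios by the authors' deposited table were -0.03, 0.20 and -0.15, and none passed the test there. limma called ATP5G2 and ATP5G3 in 2 of 14 settings each, ATP5G2 without library 1 of condition B among them (log2 ratio 0.32, adjusted p = 0.0462, against 0.21 and 0.226 with all libraries). Over the limma settings the ratio of ATP5G2 stayed above 0 and that of ATP5G3 below 0, while ATP5G1 changed sign in 2 of 14. Whether the 3 genes differed from each other was not tested.

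ATP5J and ATP5J2, a stalk and a membrane subunit, had 2 of the highest log2 ratios of complex V, 0.33 and 0.38 by the authors' deposited table. ATP5J2 held 3947, 4411 and 6720.4 normalised reads in condition A and 4711, 3480.2 and 3376 in condition B. Library 3 of condition A was the highest and library 1 of condition B overlapped with condition A; the limma interval ran from -0.05 to 0.77. Without library 3 of condition A the limma log2 ratio went from 0.36 to 0.13 for ATP5J2 and from 0.32 to 0.18 for ATP5J. Without library 1 of condition B it rose to 0.51 for ATP5J2 and 0.46 for ATP5J. With both of these libraries left out it was 0.28 and 0.32. ATP5SL, named for its likeness to ATP5S and known as an assembly protein of complex I, had 3569, 3909 and 4829 reads in condition A and 3646, 2904 and 2807 in condition B. Its log2 ratio of 0.40 was the highest of the 80 members by the authors' deposited table (DESeq adjusted p = 0.555). ATP5S, a coupling factor, had the lowest of complex V at -0.35 there. It had 500.4, 437.9 and 351.4 reads in condition A and 483, 535.9 and 629 in condition B, which overlapped. The limma log2 ratio was -0.36 with all libraries and -0.22 without library 3 of condition A. It was -0.48 without library 1 of condition A, and -0.31 without library 3 of condition A and library 1 of condition B together. ATP5I, a small membrane subunit, had -0.25 with no overlap between the conditions.

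**Figure D3:**
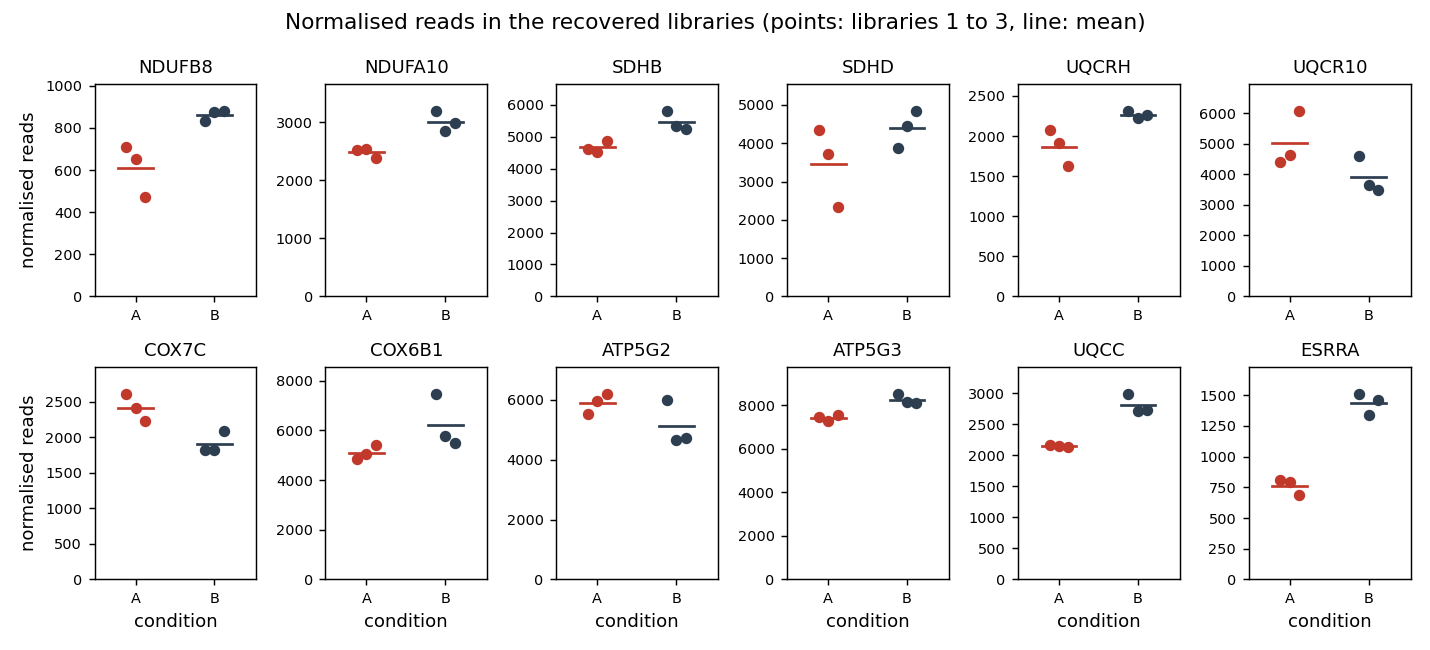
Each panel gives normalised reads on an axis that starts at 0, with the 3 recovered libraries of condition A in red, those of condition B in dark blue and a line at each mean. NDUFB8, NDUFA10, SDHB, UQCRH, COX6B1, ATP5G3, UQCC and ESRRA are lower and COX7C is higher in condition A without overlap, while SDHD, UQCR10 and ATP5G2 overlap. The genes shown were picked and are not a sample of the members. Of 75 members, 13 lay all below and 2 all above condition B, against 19.6% and 15.4% of such protein-coding genes.

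Of the 9 members with a mean under 100, the 4 tissue forms of complex IV are named above. ATP5L2 and the readthrough row ATP5J2-PTCD1 were under 4 reads in both conditions. NDUFA7, SDHD and UQCR11 each have a second row with its own identifier, at means of 3.05 and 7.76, 0.876 and 1.71, and 79.4 and 79.4 normalised reads by the authors' deposited table. The pseudogene rows ATP5EP2 (739.4 and 767.7) and COX6A1P2 (1688 and 1574) had high means there. Reads of a pseudogene and its near-identical parent gene, ATP5E or COX6A1, may not have been told apart, so the values of all 4 are uncertain. The same holds for any overlapping or antisense gene, since the strand setting is not given in the sources used here.

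Libraries of 1 condition deviated from each other across the members, library 3 of condition A by the most. Relative to the mean of libraries 1 and 2, library 3 of condition A ran from -1.03 (NDUFA5) to 0.69 (ATP5J2) on the log2 scale, and it was the lowest of its condition in 42 and the highest in 26 of 75 members. Library 1 of condition B was the highest of its condition in 57 of 75. Over 9318 protein-coding genes library 3 of condition A was the lowest in 4101 and library 1 of condition B the highest in 4174. The SD of such deviations over the members was 0.307 for library 3 and 0.23 for library 1 of condition A, and 0.189 for library 1 of condition B. The deviations of library 3 of condition A and library 1 of condition B followed the GC content of the principal transcript, with Pearson r of 0.53 for library 3 of condition A and 0.62 for library 1 of condition B across the 75 members, and 0.65 and 0.66 across 9318 protein-coding genes. Library 1 of condition A had an r of -0.60 over the members, measured against a mean that holds library 3. The points of such a correlation share their libraries, so it is a description. Library 3 of condition A also had the lowest size factor, 0.768.

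**Figure D4:**
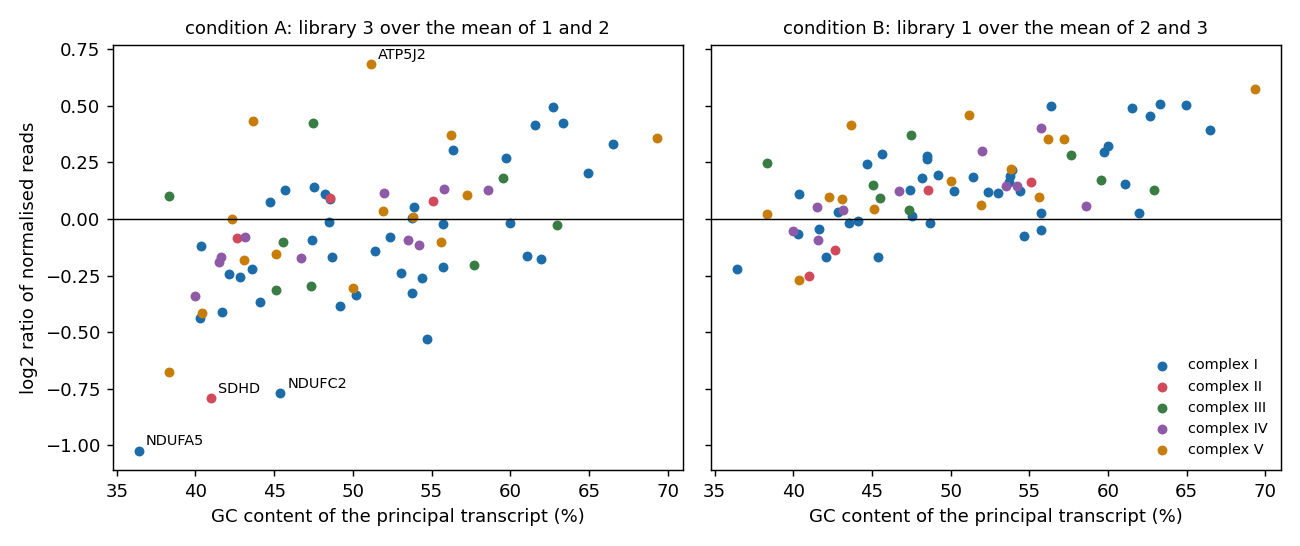
Each point is a member, with the GC content of its principal transcript in percent on the horizontal axis and, on the vertical axis, the log2 ratio of 1 library to the mean of the other libraries of its condition. GC-poor members such as NDUFA5 and SDHD lie low in library 3 of condition A, and r across the 75 members is 0.53 on the left and 0.62 on the right.

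The difference between conditions moved with GC content as well, with r of 0.29 across the 80 members and 0.20 across all 10321 protein-coding genes. By the authors' deposited table the 40 members at or above the members' median GC content of 50.1% had a median log2 ratio of -0.03, and the 40 below it -0.11. With the longest transcript of each gene in place of the one used, the correlations were 0.58, 0.68 and 0.32 and the medians -0.01 and -0.11. With the GC trend of each library removed, limma called 10 of 78 members (2 higher, 8 lower), against 19.4% of all genes. Without library 3 of condition A and library 1 of condition B together it called 25 (17 higher, 8 lower), against 25.5%. Left out singly, library 1 of condition A gave 7 called members (13% of all genes), library 3 of condition A gave 2 (9.75%) and library 1 of condition B gave 1 (6.19%). limma called none without library 2 of condition A, library 2 of condition B or library 3 of condition B, against 2.25%, 2.14% and 2.21%. The 2 calls of the limma fit stayed at 2 with TMM factors (9.11%), library totals (9.19%), a pseudocount of 8 (9.21%) and no filter on low values (4.6%), though not for the same pair with library totals. The part that library composition had in the differences of single members was not tested.

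**Figure D5:**
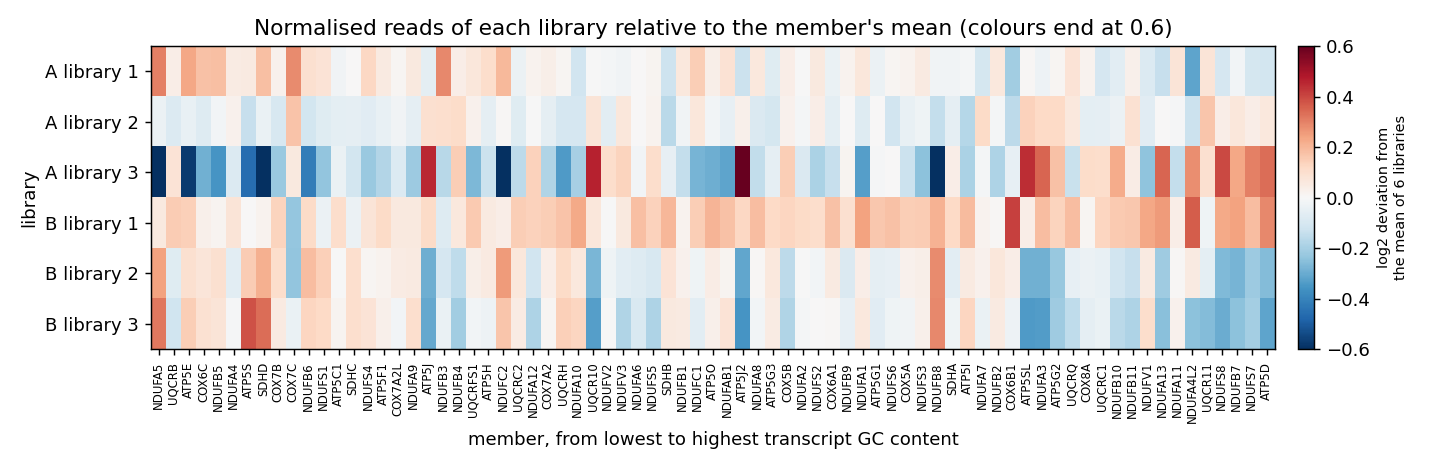
Colours give the log2 deviation of each library (rows) from the mean of the 6 libraries for 75 members (columns), ordered by GC content from low on the left to high on the right. Library 3 of condition A changes most along the row, and library 1 of condition B is above the other libraries of its condition for 57 of the members.

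The wider mitochondrial lists are read against the same background, 2.54% of all rows and 6.39% of protein-coding genes with a mean of at least 100 called by DESeq adjusted p. Of 37 assembly factors by the authors' deposited table, 0 were higher and 1 was lower in condition A by DESeq adjusted p, with a median log2 ratio of -0.05 over those with a mean of at least 100. The called gene was UQCC, an assembly factor of complex III, with 2172, 2150.4 and 2132 normalised reads in condition A and 2981, 2707 and 2731 in condition B. The libraries did not overlap, and its log2 ratio of -0.38 had a DESeq adjusted p of 0.0459 by the authors' deposited table. Of 14 carriers and import proteins, 1 was called: TIMM17A, a channel subunit of the inner membrane translocase, which was lower in condition A. It held 2940.3, 2592 and 2094 reads in condition A and 3744, 3691 and 3724 in condition B (log2 ratio -0.55, DESeq adjusted p = 0.00134 by the authors' deposited table). The limma calls of UQCC and TIMM17A were lost without library 2 of condition A (adjusted p = 0.0854 and 0.0626), library 2 of condition B (0.068 and 0.0719) or library 3 of condition B (0.0696 and 0.0653). The log2 ratios there were -0.38, -0.41 and -0.40 for UQCC and -0.58, -0.57 and -0.56 for TIMM17A, against -0.38 and -0.56 with all libraries.

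By DESeq adjusted p, the authors' deposited table calls none of 18 genes of the TCA cycle and pyruvate dehydrogenase, and none of 16 electron carriers, ubiquinone enzymes and subunits with other names. At an unadjusted p under 0.05 it holds 1 and 3 of them, all lower, against 9.61% of all rows and 21.1% of protein-coding genes with a mean of at least 100. The genes with the smallest p were PDHB, a pyruvate dehydrogenase subunit (log2 ratio -0.26, DESeq adjusted p = 0.467), and USMG5, a small ATP synthase subunit (-0.44, DESeq adjusted p = 0.12). USMG5 had 1447, 1221 and 999 reads in condition A and 1655, 1574 and 1744 in condition B, with no overlap. limma called it with an adjusted p of 0.0472. That call was lost without library 2 or 3 of condition A (adjusted p = 0.141 and 0.0515) and without library 1, 2 or 3 of condition B (0.097, 0.125 and 0.174), at log2 ratios of -0.46, -0.32, -0.45, -0.49 and -0.42 against -0.45. The 13 mitochondrially encoded subunits were not matched to a row and were not analysed here.

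Among 18 regulators of mitochondrial genes, 17 of them with a mean of at least 100, ESRRA was the 1 gene called by DESeq adjusted p. It is a nuclear receptor known to act at many respiratory chain promoters. The shares called were 2.54% of all rows and 6.39% of protein-coding genes with a mean of at least 100. At an unadjusted p under 0.05 there were 4, all lower in condition A (ESRRA, TFB1M, TFAM and C10orf2). The shares there were 9.61% of all rows and 21.1% of such protein-coding genes (8.78% higher and 12.3% lower). ESRRA was lower in condition A, with 807, 795 and 688 normalised reads against 1507, 1336 and 1458 in condition B. The libraries were far from overlapping, and the log2 ratio was -0.91 (DESeq adjusted p = 7.79e-10 by the authors' deposited table). Over all limma settings it lay between -0.96 and -0.80 with an adjusted p of at most 0.00757. NRF1 had a log2 ratio of 0.13, GABPA -0.14, GABPB1 0.08 and YY1 0.08 by the authors' deposited table, all with a DESeq adjusted p of 1. TFAM, the packaging and transcription factor of mitochondrial DNA, had 5271, 4391 and 3169 reads in condition A and 5340.4, 5989 and 6353 in condition B. Its log2 ratio was -0.46 (DESeq adjusted p = 0.444 by the authors' deposited table), and library 1 of condition A came close to condition B. PPARGC1A, a coactivator of these factors, had a mean of 0.823 reads, and PPARGC1B, its relative, had 2094.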

How the data were processed

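RNA of 6 samples of U2932 cells was sequenced. STAR, HTSeq 0.5.4p5 and DESeq 1.14.0 are named with build hg19, per the submitters' processing notes; no source used here gives the annotation release or strand setting. Per the file headers, the authors deposited 1 row per gene with means, a fold, its log2 and p-values. The authors' means are a signal: counts divided by size factors and averaged over libraries, per the file headers and the recovered reads. The deposited fold is a ratio, B over A, and the sign of its deposited log2 was turned. The deposited p-value and its adjusted p-value were used as given, with a threshold of 0.05. The deposited track of hg19 intervals, whose score per the file headers was not used, gave coordinates only, and 0 columns of per-sample values were left out.

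Each condition mean of up to 10000 was searched for the 3 whole read counts that give it, in full up to 4000 and above that with each library at 0.5 to 1.6 times the mean. The first limits were narrower and were widened because NDUFA5 and SDHD had no solution. Exactly 1 solution was found for 33673 of 33765 rows in condition A and for 33848 of 33848 in condition B. Of the members 86 of 91 had reads in both conditions (not COX4I1, ATP5A1, ATP5B, ATP5L and CYC1). Values of single libraries come from this search and not from a deposited column. TMM factors and library totals were taken from recovered reads only, so the most abundant genes were left out of them. Recovered rows held 51.69% of the summed means in condition A and 57.22% in condition B.

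limma 3.58.1 (R 4.3.3) with a mean-variance trend was run on log2(normalised reads + 1), so a fold change of a low gene is understated, with Benjamini-Hochberg adjustment over the 16589 genes whose mean reached 10. That filter was added after the fit over all genes had been seen to make few calls on simulated data and on fewer libraries. On simulated data with these limma settings, 41% of 1.5-fold and 99% of 2-fold changes were called. The simulation gave all genes a dispersion of 0.02 and changed 200 of them, while limma called 1511 genes in the real data. The dispersion was not fitted to the members, whose median limma SE was 0.093, so these shares are not their power. Medians use protein-coding members with a mean of at least 100. Gene types, transcript lengths and GC content are from GENCODE 29, matched by identifier for 32769 of 34675 rows. The principal transcript is the one of lower-median length among those of the best APPRIS rank and support, a rule chosen after levels and GC relations under a first rule, the longest transcript, had been seen.

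The members and lists were chosen with earlier results of these data known. A further marker of the cell type check is not reported here. Named members are, in each complex, the 3 highest per kilobase, the 2 with the smallest p and the highest and lowest ratios, all isoforms of a set, and the called or smallest-p genes of each wider list. Other members named were chosen after their values were seen, among them NDUFV1, NDUFS1, NDUFS7, NDUFS8, NDUFA5 and the regulators beside ESRRA.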

Additional observations from a re-analysis of the deposited data

How the results depend on the processing

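The count of members called was 0 in the authors' deposited table and 2 when its p-values were adjusted over genes with a mean of at least 10 or 100 (NDUFB8 and COX7C; 1177 and 1089 genes). By limma it was 2 of 1511 genes, 2 of 1547 without the filter on low values, 2 of 1528 with a pseudocount of 8, 2 of 1512 with TMM factors and 2 of 1525 with library totals (NDUFA10 in place of COX7C). It was 10 of 3223 with the GC trend removed, 9 of 3244 with that trend on the longest transcripts, and 25 of 4226 without library 3 of condition A and library 1 of condition B. Leaving out 1 library at a time gave 0 to 7 members and 355, 367, 374, 1027, 1617 or 2156 genes. The GC settings and the joint omission were chosen after seeing the data, and the omission of both libraries gave the most calls of all settings. The cause of the changes was not tested. The median log2 ratio of complex II lay between -0.18 and -0.10 when 1 library was left out. Without both libraries the medians of complexes IV and V were -0.0281 and -0.0046, over 10 and 14 members with recovered reads. Other medians moved by less than 1 SD between libraries, which for complexes I, III, IV and V and for all members still meant by over 1.5 times when 1 library was left out. No paired analysis was possible because the libraries recovered from the means carry no replicate number of the labels. Depth limits the members under 100 reads. A 1.5-fold change was called in 41% of cases simulated at a dispersion of 0.02, which was not fitted to the members.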
